A study of Mus musculus with 10 samples.

Results

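The 10 chemokine genes described here, of 18055 genes listed for primary mouse hepatocytes (liver parenchymal cells kept in culture), were Cxcl1, Cxcl2, Cxcl5, Ccl2, Ccl7, Ccl3, Ccl4, Ccl5, Cxcl10 and Cxcl13. They were chosen by symbol as chemokines that attract neutrophils, monocytes and lymphocytes, and on their levels over the 5 groups of these same libraries. The questions were which of them rise with palmitate only and whether Neurotropin lowers them. Because those levels helped to choose the genes, their levels and fold changes are a description and carry no test. All 10 genes were listed in the data, and all 10 passed the filter on low counts.

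The hepatocytes came from C57BL/6 mice, and every group was cultured in the same medium. There were 5 groups of 2 libraries each. Vehicle cells received no fatty acid and no drug. PA cells received 200 μM palmitate, a saturated free fatty acid (FFA), for 24 h, and LA cells received 12 μM linoleate, a polyunsaturated FFA, for 24 h. PA+NTP and LA+NTP cells first received Neurotropin (NTP), a drug used against chronic pain, for 1 h at 0.4 NU/mL (the dose in the study's text) and then the same FFA. PA and LA were given at different doses, so the kind of FFA and its dose cannot be told apart, and no group received NTP alone. The labels do not say whether the libraries of a group came from separate cultures, so the spread between them may be technical.

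Chemokines are small secreted proteins that guide leukocytes by binding receptors coupled to G proteins. Cxcl1, Cxcl2 and Cxcl5 act on Cxcr2 of neutrophils and Ccl2 and Ccl7 on Ccr2 of monocytes, and Ccl3, Ccl4 and Ccl5 attract monocytes and T cells. Cxcl10 acts on Cxcr3 of T cells and Cxcl13 on Cxcr5 of B cells. In the liver, hepatocytes, Kupffer cells and stellate cells can all transcribe such genes, largely through NF-κB, AP-1 and interferon-responsive factors, and decay factors such as Zfp36 and Zc3h12a shorten the life of their mRNAs.

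Depth ranged from 13142588 to 60046937 expected counts per library, an expected count being the estimated number of reads from a gene. Levels are given in FPKM, fragments scaled for transcript length and library size, so that genes can be compared per length. Log2 fold changes came from edgeR's quasi-likelihood test, fitted to the expected counts of 14097 genes over all groups. Their standard errors (SE) are approximate. Each is the absolute log2 fold change over the square root of that test's F statistic. Calls needed an adjusted p under 0.05 (Benjamini-Hochberg, over all tested genes) and a fold of at least 1.5. With 2 libraries against 2, an exact permutation test of a single gene cannot fall below p = 0.333. Each log2 value was also set against its gene's mean over all libraries. These deviations fell with the GC content of transcripts in the PA and LA libraries (Spearman's rho across genes from -0.572 to -0.471). In the other 6 libraries they rose with it (0.345 to 0.573). The chemokine transcripts had a median GC content of 44.4%, against 50.1% for all tested genes, so fold changes are also given after removal of this trend.

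The genes lie in clusters. In the RefSeq annotation of GRCm38.p6, Cxcl5, Cxcl1 and Cxcl2 lie on chromosome 5 from 90759298 to 90905938, Cxcl10 (92346638 to 92348889) and Cxcl13 (95956939 to 95961068) lie further along it, and on chromosome 11 Ccl2 and Ccl7 lie from 82035577 to 82047525 and Ccl5, Ccl3 and Ccl4 from 83525778 to 83664683. Promoter sequences of 5 of the 10 genes (Cxcl1, Cxcl2, Cxcl10, Cxcl13 and Ccl3) were in the RefSeq table used here. The 250 bases before the start of 4 of them are shown because these genes moved in different directions with PA, and those of the neighbouring ligand gene Cxcl3 because it resembles Cxcl1 and Cxcl2. Capitals mark matches to the NF-κB consensus on either strand. The windows are chr5:90890995-90891244 (Cxcl1, plus strand), chr5:90903649-90903898 (Cxcl2, plus strand), chr5:90785851-90786100 (Cxcl3, plus strand), chr5:92348890-92349139 (Cxcl10, minus strand) and chr5:95956689-95956938 (Cxcl13, plus strand).
Cxcl1: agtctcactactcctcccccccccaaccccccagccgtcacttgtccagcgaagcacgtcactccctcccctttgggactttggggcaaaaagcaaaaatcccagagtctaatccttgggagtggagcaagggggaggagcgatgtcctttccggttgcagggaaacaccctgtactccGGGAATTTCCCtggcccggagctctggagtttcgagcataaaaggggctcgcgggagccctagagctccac
Cxcl2: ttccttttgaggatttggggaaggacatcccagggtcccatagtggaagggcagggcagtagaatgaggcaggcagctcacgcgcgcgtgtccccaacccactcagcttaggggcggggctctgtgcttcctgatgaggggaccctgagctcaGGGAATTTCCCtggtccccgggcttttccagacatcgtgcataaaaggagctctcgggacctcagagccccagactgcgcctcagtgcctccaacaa
Cxcl3: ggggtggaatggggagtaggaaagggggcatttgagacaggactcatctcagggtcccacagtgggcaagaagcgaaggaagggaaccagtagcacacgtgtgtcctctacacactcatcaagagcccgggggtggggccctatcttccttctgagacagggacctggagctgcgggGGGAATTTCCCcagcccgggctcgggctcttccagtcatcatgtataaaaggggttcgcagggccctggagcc
Cxcl10: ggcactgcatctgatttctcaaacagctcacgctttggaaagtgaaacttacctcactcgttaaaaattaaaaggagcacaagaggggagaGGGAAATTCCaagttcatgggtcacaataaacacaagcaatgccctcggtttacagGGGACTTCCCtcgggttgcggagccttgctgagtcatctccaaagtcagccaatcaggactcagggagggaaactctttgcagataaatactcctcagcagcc
Cxcl13: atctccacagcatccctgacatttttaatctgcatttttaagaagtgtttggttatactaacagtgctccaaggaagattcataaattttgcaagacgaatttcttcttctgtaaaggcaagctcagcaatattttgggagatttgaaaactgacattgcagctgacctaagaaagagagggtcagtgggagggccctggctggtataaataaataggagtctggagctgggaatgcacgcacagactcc

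The same letters, GGGAATTTCCC, began at position -71 in Cxcl1, -97 in Cxcl2 and -73 in Cxcl3, counted from the base before the start as -1. These 11 letters hold overlapping matches on both strands, counted as 1. Cxcl10 held GGGAAATTCC at -159 and GGGACTTCCC at -103, and it alone of the 6 windows searched held an AP-1 match (TGANTCA, at -74) and an interferon-responsive core (GAAA, any pair of bases and GAAA again, at -213). No match to the 3 motifs was found in the windows of Cxcl13 and Ccl3. Among 32851 promoter windows of this length, 3.9% held the NF-κB consensus, 6.75% the AP-1 letters and 2.98% the interferon-responsive letters. A match is a description of the letters and not a measured binding site.

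Cxcl1, the most abundant of the neutrophil ligands, was raised by PA and less so by LA. Its FPKM was 46.3 and 47.6 in the Vehicle libraries, 88.3 and 83.7 with PA, 71.5 and 66.8 with PA+NTP, 65.5 and 56.1 with LA, and 52.7 and 53.0 with LA+NTP. The PA libraries lay above all others, and from high to low the groups were PA, PA+NTP, LA, LA+NTP and Vehicle, without overlap between neighbours. The log2 fold change was 0.90 (SE 0.08) with PA, a fold of 1.87 that was called, and 0.42 (SE 0.08) with LA, a fold of 1.34 that was under the threshold. PA exceeded LA by 0.48 (SE 0.08), also under the fold threshold. Without the first LA library this difference was 0.60 and called.

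Cxcl2, another ligand of Cxcr2, was raised by PA and not by LA, at a far lower level than Cxcl1. Its FPKM was 1.39 and 1.46 in Vehicle, 3.85 and 3.35 with PA, 4.82 and 5.59 with PA+NTP, 1.04 and 1.03 with LA, and 1.12 and 0.80 with LA+NTP. Every library that received PA lay above every library that did not, and the PA+NTP libraries were the highest. With PA the log2 fold change was 1.34 (SE 0.26), a fold of 2.53, and with LA it was -0.42 (SE 0.28), and PA exceeded LA by 1.76 (SE 0.26). In transcripts, 7.59% of the 31-base sequences of Cxcl2 also occur in Cxcl3, so a part of their reads may be divided between them by the counting.

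Cxcl5, the third of these ligands, was close to absent without PA. Its FPKM was 0.19 and 0.07 in Vehicle, 3.74 and 2.87 with PA, 2.52 and 1.39 with PA+NTP, 0.15 and 0.17 with LA, and 0.23 and 0.07 with LA+NTP. It passed the filter on low counts only through the PA and PA+NTP groups. Over both libraries it had 266 counts with PA and 9 in Vehicle. The ratio was 26.4 after scaling for depth (95% exact interval 13.7 to 58.5, counting error only). Against the 15 counts with LA the ratio was 18.8 (11.2 to 34.1). These intervals pool the libraries of a group and leave out the spread between them. As Cxcl5 was chosen on these levels, they are no test of a rise. The fitted log2 fold change with PA was 4.76 (SE 0.54), the largest of the 10 genes, and it lay between 4.09 and 5.58 when any 1 library was left out.

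Ccl2, the main chemoattractant of monocytes, was the most abundant of the 10 transcripts and was raised by PA but not by LA. Its FPKM was 162 and 158 in Vehicle, 393 and 411 with PA, 478 and 472 with PA+NTP, 169 and 162 with LA, and 163 and 170 with LA+NTP. The Vehicle, LA and LA+NTP libraries overlapped, and the PA and PA+NTP libraries lay far above them. The log2 fold change was 1.36 (SE 0.06) with PA, a fold of 2.57, against 0.10 (SE 0.06) with LA, and PA exceeded LA by 1.27 (SE 0.06). No other member had such a small SE, with between 2390 and 12581 counts per library.

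Ccl7, a second ligand of Ccr2 whose gene follows Ccl2 after 8.3 kb was likewise raised by PA. Its FPKM was 2.15 and 2.71 in Vehicle, 6.48 and 6.12 with PA, 8.50 and 8.12 with PA+NTP, 1.56 and 1.61 with LA, and 2.18 and 2.78 with LA+NTP. LA libraries were the lowest and PA+NTP libraries the highest. Relative to Vehicle, the log2 fold change was 1.39 (SE 0.21) with PA and -0.59 (SE 0.24) with LA, where it was not called. With library-size scaling (-0.63) and after removal of the GC trend (-0.87) the LA difference was called.

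Ccl3, a ligand of Ccr1 made mainly by myeloid cells, was low in every group without PA. Its FPKM was 1.63 and 0.62 in Vehicle, 7.10 and 6.94 with PA, 7.2 and 8.01 with PA+NTP, 1.23 and 0.70 with LA, and 1.10 and 1.11 with LA+NTP. The Vehicle, LA and LA+NTP libraries overlapped. PA gave a log2 fold change of 2.75 (SE 0.34), a fold of 6.72, and LA one of -0.05 (SE 0.42). Leaving out a Vehicle library moved the change with PA to 2.13 or 3.53.

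Ccl4, a chemokine made mainly by macrophages and activated lymphocytes, had the fewest reads of the 10 genes. Its FPKM was 0.33 and 0.57 in Vehicle, 1.05 and 1.46 with PA, 1.20 and 1.5 with PA+NTP, 0.10 and 0.06 with LA, and 0.17 and 0.08 with LA+NTP. Like Cxcl5, it passed the filter only through the PA and PA+NTP groups. It had 46 counts with PA, 14 in Vehicle and 3 with LA. PA exceeded LA 16.3-fold (5.23 to 81.8) and Vehicle exceeded LA 5.54-fold (1.55 to 30.1). These intervals too cover counting error only, and as Ccl4 was chosen on these levels they are no test. Its fitted log2 fold change with PA was 1.51 (SE 0.54). That call was lost in DESeq2 and without a filter, and when either Vehicle library, the second PA library or the second PA+NTP library was left out (1.2 to 2.0 over these fits). The fit also called it lower with LA than Vehicle, a call lost without the second Vehicle library (-1.88), without the first (-2.68) or second (-2.17) LA library, without a filter (-2.37), in DESeq2 (-2.44), in limma on log2(FPKM + 1) (-0.42) and once the trend of fold changes with the GC content of genes was removed (-2.38). Its call in PA against LA was lost without the second PA library (3.57) and in DESeq2 (3.95). The RefSeq loci of Ccl3 and Ccl4 overlap at one end, no shared exon or 31-base sequence was found between them, and whether the libraries keep the strand is not given in the sources used here.

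Ccl5, which attracts T cells and monocytes, varied widely within groups. Its FPKM was 3.37 and 1.48 in Vehicle, 4.54 and 3.29 with PA, 7.12 and 3.17 with PA+NTP, 1.57 and 0.69 with LA, and 2.52 and 2.41 with LA+NTP. The Vehicle and PA libraries overlapped, and the log2 fold change with PA was 0.73 (SE 0.47) and not called. PA exceeded LA by 1.67 (SE 0.50), a call that was lost when either PA, either LA or either LA+NTP library was left out (1.25 to 2.43 over these fits).

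Cxcl10 and Cxcl13, both ligands of lymphocyte receptors, were lower with PA. The FPKM of Cxcl10 was 15.4 and 14.7 in Vehicle, 11.03 and 6.73 with PA, 13.9 and 10.6 with PA+NTP, 13.1 and 10.9 with LA, and 21.0 and 19.1 with LA+NTP. Vehicle lay above both PA libraries, and LA+NTP lay above all other libraries. The log2 fold change of Cxcl10 was -0.81 (SE 0.19) with PA and -0.27 (SE 0.18) with LA. Without the second PA library the former was -0.41 and no longer called. Exons of Cxcl10 overlap those of Art3 on the other strand, which holds 4.47% of its 31-base sequences.

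The FPKM of Cxcl13 was 3.25 and 2.46 in Vehicle, 0.40 and 0.87 with PA, 0.37 and 0.49 with PA+NTP, 3.02 and 2.87 with LA, and 2.72 and 3.08 with LA+NTP. All libraries with PA lay below 1 FPKM and all others above 2. The log2 fold change was -1.95 (SE 0.32) with PA, 3.85-fold lower, and 0.10 (SE 0.27) with LA. PA was lower than LA by a log2 fold change of -2.05 (SE 0.31).

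**Figure D1:**
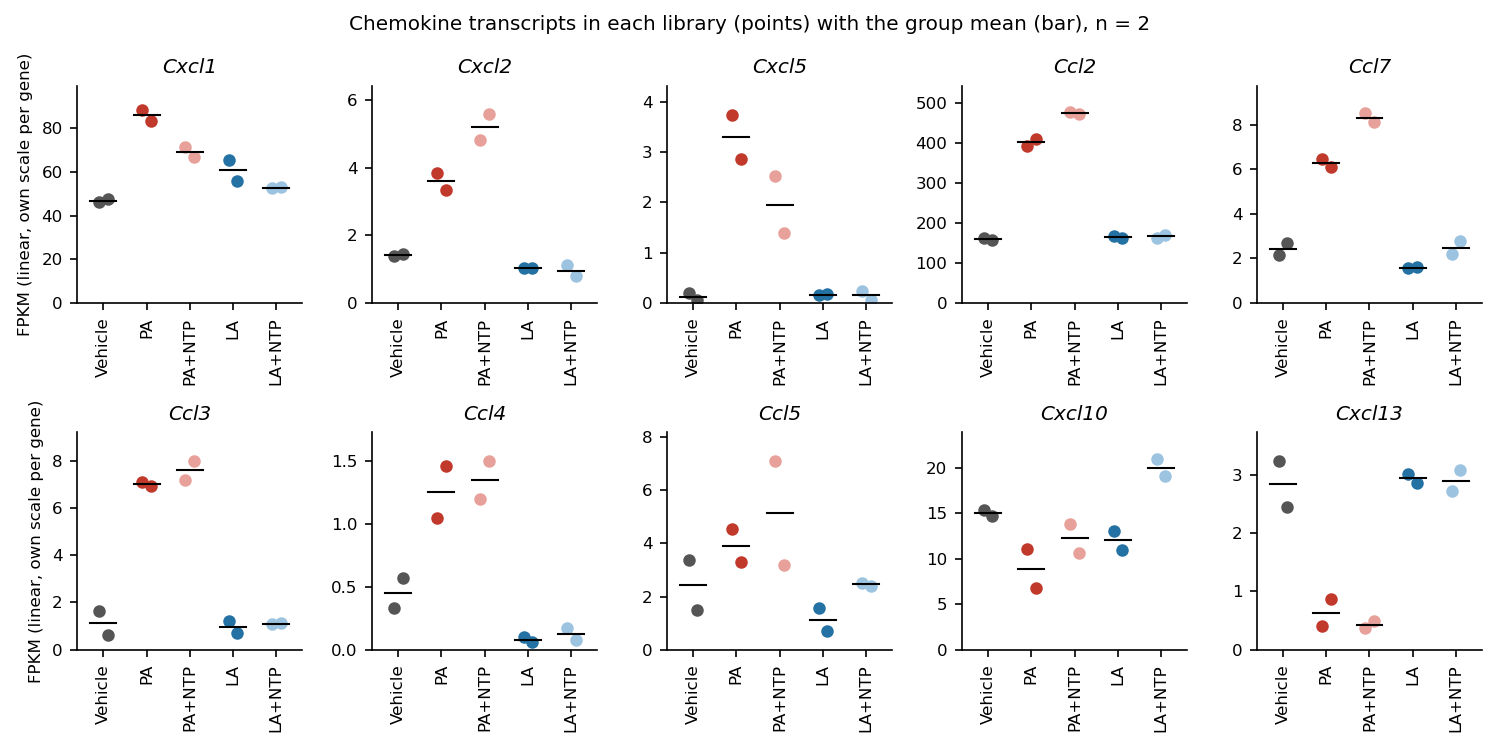
FPKM of the 10 chemokine genes in each library, with a point per library, a black bar at the mean of the 2 libraries of a group, and a linear axis of its own for each gene. The PA and PA+NTP points lie above all others for Cxcl1, Cxcl2, Cxcl5, Ccl2, Ccl7, Ccl3 and Ccl4 and below all others for Cxcl13.

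Read across the genes, PA was called higher than Vehicle for 7 of the 10 genes, where 6.00% of all 14097 tested genes were called higher, and lower for 2, where 8.92% were called lower. As the group levels were among the values by which the genes were chosen, nothing is read from these calls or from those of the other contrasts, and for Ccl4 and Cxcl5, which passed the filter through the groups where they were high, a call was favoured. LA was called higher for 0 genes (3.53% of all genes) and lower for 1, Ccl4 (7.11%). Beside that 0 from edgeR, 3 of the 10 genes differed between LA and Vehicle at an unadjusted p under 0.05, and DESeq2 called 0 in either direction. In the direct contrast, PA was called higher than LA for 7 genes (1.18% of all genes) and lower for 1, Cxcl13 (2.04%).

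By level, both PA libraries lay above all Vehicle and LA libraries for Ccl2, Ccl3, Ccl4, Ccl7, Cxcl1, Cxcl2 and Cxcl5. For Ccl5 they lay above both LA libraries and overlapped Vehicle. The median log2 fold change of the 10 genes was 1.35 with PA and -0.16 with LA, against -0.01 and -0.01 over all tested genes. Once the GC trend was taken out, 7 higher (3.67% of all genes) and 2 lower (4.75%) calls with PA were still counted, and the median of the 10 genes was 1.12.

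**Figure D2:**
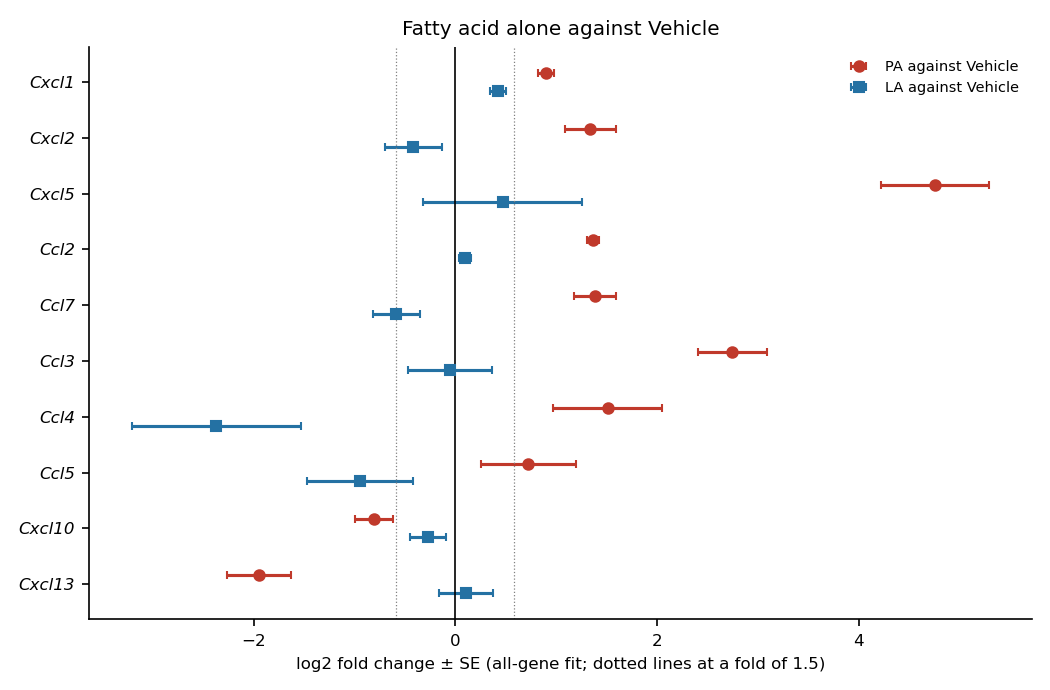
Log2 fold change with its SE for each chemokine gene, PA against Vehicle (circles) and LA against Vehicle (squares), with dotted lines at a fold of 1.5. The circles reach 4.76 for Cxcl5 and -1.95 for Cxcl13, whereas the squares stay between -0.95 and 0.47 except for Ccl4, which rests on 3 counts with LA.

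In PA+NTP against PA, 0 of the 10 genes were called higher (8.74% of all genes) and 0 lower (5.11%). Beside these counts from edgeR, 5 of the 10 genes had an unadjusted p under 0.05, and DESeq2 also called 0. As the group levels helped to choose the genes, nothing is read from these counts. The median log2 fold change of the 10 genes was 0.12, with 6 of them above 0 and 4 below, against 0.01 over all tested genes.

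Among the neutrophil ligands, Cxcl1 was lower in both PA+NTP libraries than in both PA libraries, by a log2 fold change of -0.37 (SE 0.08), 1.29-fold, and it remained above Vehicle by 0.53 (SE 0.08). Cxcl5 was also lower, by -0.80 (SE 0.36), 1.74-fold. That difference of Cxcl5 was called without a filter (-0.79), with only the groups compared (-0.79), with a replicate block (-0.88) and without the first PA+NTP library (-1.27), and it was -0.37 and not called after removal of the GC trend. Cxcl2 was higher in both PA+NTP libraries, by 0.49 (SE 0.22).

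Of the monocyte ligands, Ccl2 differed by 0.18 (SE 0.06) and Ccl7 by 0.35 (SE 0.19), each with both PA+NTP libraries above both PA libraries. Ccl3 (0.06, SE 0.27) and Ccl4 (-0.01, SE 0.44) had differences smaller than their SE. Ccl5 gave 0.38 (SE 0.42), Cxcl10 gave 0.49 (SE 0.19) and Cxcl13 gave -0.78 (SE 0.39), all as log2 fold changes of PA+NTP against PA. Without the first PA library Cxcl10 (0.80) was called higher and Cxcl13 (-1.07) lower, and Cxcl10 was also called without the second PA+NTP library (0.66).

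Against Vehicle, PA+NTP was called higher for 5 genes (1.21% of all genes) and lower for 1 (1.64%). The 5 genes were Ccl2, Ccl3, Ccl7, Cxcl2 and Cxcl5, and the lower gene was Cxcl13 (-2.73, SE 0.33). The fold over Vehicle with NTP present was 2.92 for Ccl2, 7.01 for Ccl3, 3.32 for Ccl7, 3.56 for Cxcl2 and 15.6 for Cxcl5. Cxcl1 had a fold of 1.45, under the threshold. PA and PA+NTP are each set against the same Vehicle libraries, so the chance deviations of those libraries enter both.

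LA+NTP was called higher than LA for 2 genes, Ccl7 and Cxcl10 (11.7% of all genes), and lower for 0 (7.57%). Beside that 0 from edgeR, 3 of the 10 genes had an unadjusted p under 0.05 in this contrast, and DESeq2 called 1 gene, higher. Nothing is read from these counts either, for the same reason of choice. The log2 fold change was 0.62 (SE 0.22) for Ccl7, whose LA+NTP and Vehicle libraries overlapped, and 0.69 (SE 0.17) for Cxcl10, whose LA+NTP libraries lay above Vehicle. The call of Ccl7 was lost when the first LA library (0.60), the second LA library (0.63) or the second LA+NTP library (0.41) was left out, and that of Cxcl10 without the second LA library (0.57). Cxcl1 was lower with LA+NTP than LA by -0.25 (SE 0.08), a fold of 1.19, and after removal of the GC trend by only -0.011.

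Over all 14097 tested genes, edgeR's contrast of the NTP effect under PA with that under LA called 0 genes (a share of 0%), with 1029 at an unadjusted p under 0.05, and DESeq2 called 5. For the 10 chemokine genes the NTP effects under both FFAs stand side by side as a description.

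**Figure D3:**
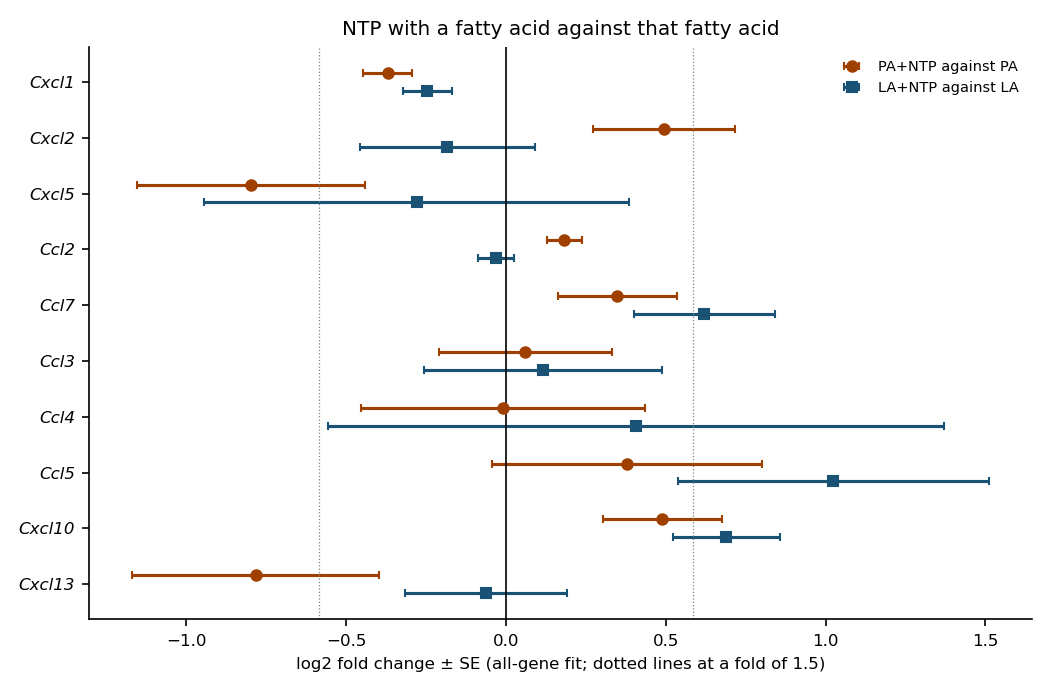
Log2 fold change with its SE for each chemokine gene, PA+NTP against PA (circles) and LA+NTP against LA (squares), with dotted lines at a fold of 1.5. Cxcl1 lies below 0 under both FFAs, and Ccl7 and Cxcl10 lie above 0 under both. Cxcl5 lies below 0 under PA, and under LA its error bar crosses 0 (-0.279, SE 0.665). Ccl3 and Ccl4 have error bars across 0 under both FFAs, Ccl5 under PA, and Ccl2, Cxcl2 and Cxcl13 under LA.

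Removal of the GC trend changed calls in the NTP contrast. After removal, 3 of the 10 genes were called higher in PA+NTP than in PA (3.61% of all genes), namely Cxcl2 (0.73), Ccl7 (0.60) and Cxcl10 (0.61), and 0 were called lower (2.53%). Cxcl1 was then lower with NTP by -0.20 in place of -0.37. Ccl2 was 0.42 higher with NTP in place of 0.18. Of the genes called higher with PA, all 7 were still called, with Cxcl1 at 0.74 in place of 0.90 and Ccl2 at 1.13 in place of 1.36.

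**Figure D4:**
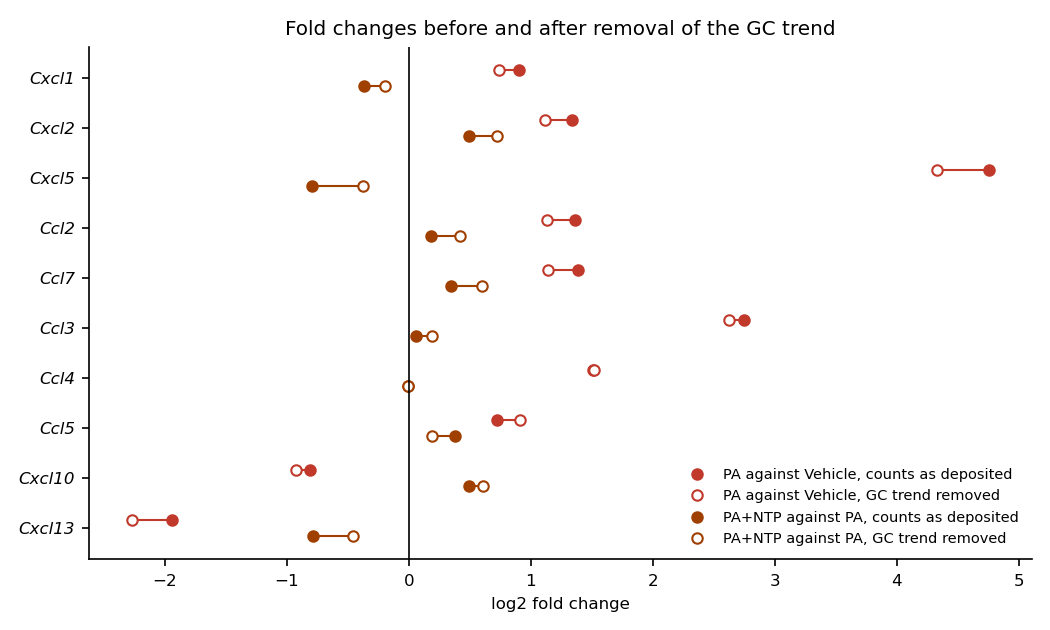
Log2 fold change of each chemokine gene for PA against Vehicle (red) and PA+NTP against PA (brown), from the counts as deposited (filled) and after removal of the GC trend (open), joined by a line. For most genes with a PA effect above 0 the open red point lies to the left, and for Cxcl2, Ccl2 and Ccl7 the open brown point lies to the right.

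Among the 28 other chemokine ligand genes looked up, 22 were listed and 14 were tested. With PA, 1 was called higher and 2 lower by edgeR's quasi-likelihood test, where 6.00% and 8.92% of all genes were. The higher gene was Cxcl3, another Cxcr2 ligand from the cluster of Cxcl1 and Cxcl2 and with the same NF-κB letters before its start. Its FPKM was 0.05 and 0 in Vehicle, 0.83 and 1.00 with PA, 1.29 and 1.08 with PA+NTP, 0.31 and 0.08 with LA, and 0 and 0.06 with LA+NTP. It had 51 counts with PA and 1 in Vehicle, a ratio of 45.6 (7.83 to 1840), and against the 12 counts with LA the ratio was 4.51 (2.37 to 9.30). It passed the filter only through PA and PA+NTP, the groups where it was high, so its call is no support for a rise and its values are a description. NTP changed it by 0.27 on the log2 scale, which was not called.

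The lower ligand genes with PA were Ccl27a (log2 fold change -1.20, SE 0.33, edgeR adjusted p = 0.0091) and Cxcl11 (-1.14, SE 0.33, edgeR adjusted p = 0.0106), and both were higher with PA+NTP than with PA (1.5 and 1.24, edgeR adjusted p = 0.00156 and 0.0055). Cxcl11 was also called lower with LA than Vehicle (-1.27, edgeR adjusted p = 0.00597), and Ccl27a was not (-0.34). Under LA, NTP raised Cxcl11 and Ccl27a as well (1.12 and 0.82, edgeR adjusted p = 0.00791 and 0.0247). Both are uncertain as single genes. Of the 31-base sequences of Ccl27a 57.0% occur in copies such as Ccl27b, and Cxcl11, annotated as a transcribed pseudogene, shares 42.2% with other transcripts and has an antisense gene. The PA call of Ccl27a was lost after removal of the GC trend (-0.80) and without the second Vehicle library (-0.99). That of Cxcl11 was lost when the second Vehicle library (-1.06) or the first PA library (-1.02) was left out. Without the first LA library, Cxcl11 was not called with LA (-0.71) or with LA+NTP (0.55). The LA+NTP call of Ccl27a was lost after removal of the GC trend (0.26). It was also lost without the first (0.69) or second (0.94) LA library or the second LA+NTP library (0.58).

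NTP raised 4 of the 14 tested ligand genes over PA (8.74% of all genes) and lowered 0 (5.11%) in edgeR's test, with 4 at an unadjusted p under 0.05 in either direction. Beside Ccl27a and Cxcl11 these were Ccl28, an epithelial chemokine (0.89, SE 0.20, edgeR adjusted p = 0.00238), and Ccl9, a ligand of Ccr1 (0.88, SE 0.21, edgeR adjusted p = 0.00391). The FPKM of Ccl9 was 3.58 and 3.41 with PA and 8.58 and 4.77 with PA+NTP, and without the first PA+NTP library its log2 fold change was 0.43 and not called, as was the 0.83 without the second PA library. Ccl28 rose from 0.88 and 0.84 FPKM with PA to 1.54 and 1.76 with PA+NTP, and from 0.46 and 0.62 with LA to 1.23 and 1.34 with LA+NTP.

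Of 23 chemokine receptor genes 20 were listed and 10 were tested. Cxcr2, the receptor of Cxcl1, Cxcl2 and Cxcl5, was at 6.89 and 6.80 FPKM in Vehicle, 5.44 and 4.28 with PA, 8.54 and 8.12 with PA+NTP, 3.66 and 4.18 with LA, and 6.06 and 7.38 with LA+NTP. NTP raised it under PA (0.76, SE 0.13, edgeR adjusted p = 0.000231) and under LA (0.75, SE 0.12, edgeR adjusted p = 0.000157). LA lowered it (-0.76, SE 0.13, edgeR adjusted p = 0.000305), and with PA it was -0.50, under the fold threshold. Without the second PA library the NTP difference under PA was 0.55 and not called.

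Cx3cr1, the fractalkine receptor, went the other way. Its FPKM was 0.40 and 0.26 in Vehicle, 1.14 and 0.86 with PA, 0.40 and 0.20 with PA+NTP, 0.72 and 1.05 with LA, and 0.30 and 0.32 with LA+NTP. Both FFAs raised it (1.66 and 1.51, edgeR adjusted p = 0.0015 and 0.00312), and NTP lowered it under both (-1.76 and -1.54, edgeR adjusted p = 0.000721 and 0.000999). Without the second Vehicle library the change with LA was 1.20 and not called. An antisense gene overlaps its exons. Ccr2, the receptor of Ccl2 and Ccl7, did not pass the filter and was at 0.15 FPKM or less in every library.

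Among 33 regulators of chemokine genes, all tested, PA raised 3 and lowered 7 by edgeR's quasi-likelihood test, where 6.00% and 8.92% of all genes were raised and lowered. After removal of the GC trend the balance turned, with 5 raised and 4 lowered (3.67% and 4.75% of all genes). Zc3h12a, an RNase that degrades chemokine mRNAs, went from 4.43 and 4.24 FPKM in Vehicle to 12.0 and 12.4 with PA (log2 fold change 1.53, SE 0.09, edgeR adjusted p = 8.6e-08). It was at 9.14 and 9.35 with LA, also called higher than Vehicle (1.14, edgeR adjusted p = 1.83e-06). With PA+NTP it fell to 6.88 and 5.84 (-1.002 against PA, SE 0.09, edgeR adjusted p = 1.55e-06). LA+NTP against LA gave a similar fall (-1.04, edgeR adjusted p = 6.07e-07). Nfkbie, an inhibitor of NF-κB, rose with PA by 0.64 (SE 0.14, edgeR adjusted p = 0.00171), and was 0.78 higher with PA than LA (edgeR adjusted p = 0.0023). Without the second Vehicle library its log2 fold change with PA was 0.57 and below the fold limit. The third raised gene was Tnfaip3, a feedback inhibitor of NF-κB signalling that was named after its values were seen (0.68, SE 0.10, edgeR adjusted p = 0.000107).

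The lowered regulators included AP-1 subunits and mRNA decay factors. Fosb fell from 1.06 and 0.83 FPKM in Vehicle to 0.20 and 0.17 with PA (-2.36, SE 0.28, edgeR adjusted p = 1.35e-05), and it was 0.65 and 0.76 with PA+NTP (1.92 against PA, edgeR adjusted p = 7.36e-05). Fos fell from 4.11 and 3.08 to 1.41 and 1.44 (-1.29, SE 0.21, edgeR adjusted p = 0.000237) and was 1.85 and 1.78 with PA+NTP, where it was not called against PA. Zfp36, which speeds the decay of mRNAs rich in AU, fell from 17.3 and 14.0 to 7.39 and 7.59 (-1.02, SE 0.13, edgeR adjusted p = 2.53e-05) and was 14.5 and 14.3 with PA+NTP (0.88, edgeR adjusted p = 7.28e-05). Zfp36l1, of the same family, was lower with PA (-0.84) and higher with PA+NTP than PA (0.83). However, it shares 59.99% of its 31-base sequences with other transcripts, among them an antisense gene. LA+NTP was also called higher than LA for Fosb (1.09), Zfp36 (0.89) and Zfp36l1 (0.73). With LA against Vehicle these genes were not called (-0.46, -0.52 and -0.54).

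Rela, the NF-κB subunit p65, and Bcl3, a nuclear partner of NF-κB, were lower with PA (-0.60 and -0.78, edgeR adjusted p = 9.85e-06 and 2.37e-06) and higher with PA+NTP (0.75 and 0.97, edgeR adjusted p = 1.72e-06 and 4.68e-07). Changes of similar size were seen under LA. Against Vehicle, LA gave -0.58 for Rela, not called, and -0.705 for Bcl3, called. LA+NTP against LA gave 0.80 and 0.91, both called. After removal of the GC trend neither gene was called with PA (-0.16 and -0.21) or with PA+NTP (0.28 and 0.39). Nor was either called with LA (-0.12 and -0.10) or with LA+NTP (0.21 and 0.13). NTP raised 6 and lowered 3 of the 33 regulators under PA (8.74% and 5.11% of all genes), and 3 and 2 after that removal (3.61% and 2.53%). The median log2 fold change of the list with NTP under PA went from 0.21 to -0.04 with the trend removed.

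**Figure D5:**
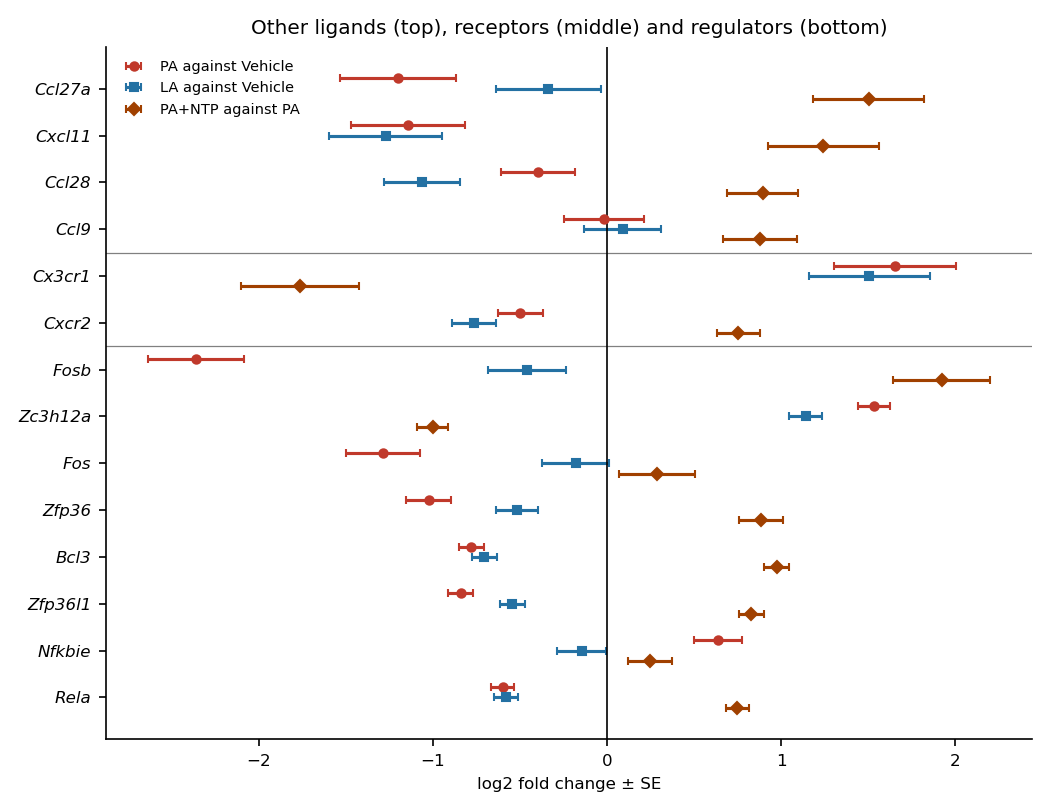
Log2 fold change with its SE for the named other ligands (top, without Cxcl3, which had 1 count in Vehicle), receptors (middle) and regulators (bottom), PA against Vehicle (circles), LA against Vehicle (squares) and PA+NTP against PA (diamonds). Zc3h12a and Cx3cr1 lie above 0 with both FFAs and below 0 with NTP, and Fosb and Zfp36 lie below 0 with PA and above 0 with NTP.

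Other liver cells in the cultures could also hold chemokine transcripts, and in bulk samples fewer cells of a type and less RNA per cell cannot be told apart. All 10 genes of the Kupffer cell or macrophage list were listed, with a summed level of 221 and 221 CPM (counts scaled to library size) in Vehicle, 230 and 261 with PA, 278 and 319 with PA+NTP, 148 and 152 with LA, and 200 and 213 with LA+NTP. Most of that sum was Cd68, a lysosomal protein of macrophages. Without Cd68 the sum was 21.1 and 21.97 CPM in Vehicle, 33.0 and 28.2 with PA, 30.8 and 38.2 with PA+NTP, 24.9 and 24.7 with LA, and 25.7 and 25.2 with LA+NTP. PA raised Lyz2 and Marco and lowered Cd5l, of 8 tested (6.00% and 8.92% of all genes). Marco was at 0.67 and 0.58 FPKM in Vehicle, 3.95 and 2.90 with PA and 3.36 and 4.59 with PA+NTP. Clec4f, which defines Kupffer cells, was at 0.22 and 0.15 in Vehicle and at 0.03 and 0.05 with PA. Its values rest on few reads, 10 and 10 counts in Vehicle and 1 and 5 with PA. Vsig4 and Timd4 stayed at 0.30 FPKM or less in every library. The part of such cells in the chemokine levels was not tested.

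Neutrophil markers were near 0, at 1.06 to 2.02 CPM summed over the 4 of 8 listed, with S100a8, S100a9, Ly6g and Retnlg listed in no library, and the T, B or NK cell markers summed to 0.26 CPM or less. Monocyte markers summed to 1.95 to 2.73 CPM. Of the 8 hepatocyte markers, PA lowered 4 (Apoa1, Hnf4a, Serpina1a and Ttr) and raised 0 in edgeR's test (8.92% and 6.00% of all genes), and Alb, the albumin gene, was at 2594 and 2529 FPKM in Vehicle and 2124 and 1929 with PA. Of the 8 stellate cell or fibroblast markers PA lowered 4 and raised 0 (8.92% and 6.00% of all genes). Of the 6 sinusoidal endothelium markers it lowered 0 and raised 0, against the same shares. Their sum was 164.6 and 162.6 CPM in Vehicle and 120.3 and 128.1 with PA. Of the 4 tested cholangiocyte markers PA lowered 1, Krt19, and raised 0, again against those shares. The part of these shifts in the chemokine levels was not tested.

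Over the 10 libraries, the genes whose log2 CPM followed Cxcl1 most closely were Ubd (Pearson's r of 0.962), Slc16a1, Cluap1, Cpb2 (0.961 each) and Selenok (0.960). Ubd, a ubiquitin-like gene induced by cytokines, had the same order of groups as Cxcl1. Its mean FPKM was 57.5 in Vehicle, 153 with PA, 119 with PA+NTP, 86.5 with LA and 61.3 with LA+NTP. Cluap1, Cpb2 and Selenok had that order too. Cpb2 was at 401 in Vehicle, 736 with PA, 614 with PA+NTP, 519 with LA and 431 with LA+NTP. As the genes were ranked by likeness to Cxcl1, a shared order follows from the choice. The genes most like Ccl2 were Acod1 (0.991), Lcp1 and Ces2c (0.990 each), Npc1 (0.989) and Ccdc93 (0.983). Acod1 makes itaconate in activated macrophages. Its mean FPKM was 0.27 in Vehicle, 1.48 with PA, 1.82 with PA+NTP, 0.25 with LA and 0.24 with LA+NTP. That of Ces2c was 10.6 in Vehicle, 28.2 with PA, 28.8 with PA+NTP, 10.1 with LA and 11.5 with LA+NTP. Among the 10 chemokine genes themselves, Ccl2 followed Ccl3 (0.970), Cxcl2 (0.959), Ccl7 (0.956) and Cxcl5 (0.945) more closely than Cxcl1 (0.793), and ran against Cxcl13 (-0.967). These correlations describe 10 libraries that share 5 treatments, and no p was computed.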

How the data were processed

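Primary mouse hepatocytes were profiled by RNA sequencing in 5 groups of 2 libraries, grouped by the sample labels. Per the submitters' notes, the authors aligned reads with HISAT and Bowtie2 to mm10 and quantified genes with RSEM, and no versions are given. The expected counts that the authors deposited are estimates of reads per gene from RSEM, not normalized between libraries, and the deposited FPKM were scaled by the authors for transcript length and library size. A gene not listed for a library was taken as 0 (tables list FPKM of 0.01 or more). Gene IDs were matched to RefSeq symbols (17998 by ID and 11 by accession, of 18055).

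Expected counts were rounded and fitted with edgeR 4.0.16 in R 4.3.3, with 5 groups as one factor, TMM (factors 0.977 to 1.037), filterByExpr (14097 genes kept) and the quasi-likelihood test. The calling thresholds were 0.05 on the adjusted p (Benjamini-Hochberg) and a fold of 1.5. Log2 CPM used a prior count of 2. The study's own tool, NOISeq, was not run. Intervals on ratios of counts are exact 95% intervals and cover counting error only. The pipeline was tested on simulated data.

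The 10 genes and all lists were chosen with earlier results of these data known. Beside the 10, the text names up to 8 genes per other list, those called in PA against Vehicle, PA against LA or PA+NTP against PA with the largest change, and the 5 genes most like Cxcl1 and Ccl2. Alternatives were library-size scaling, DESeq2 1.42.0, no filter, limma 3.58.1 on log2(FPKM + 1) and log2(FPKM + 0.1), removal of a loess trend on GC content (span 0.4, as an offset), only the groups compared, a replicate block, and leaving out each library. The chi-square per gene between replicates was 3.69 to 15.85, above counting noise, so no library repeated another. Promoters are from RefSeq (GRCm38.p6), and shared 31-base sequences and exon overlaps from GENCODE M21.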

Additional observations from a re-analysis of the deposited data

Results flagged for a closer look

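By level, Cxcl3 differed with NTP in opposite directions under the FFAs, at low counts. Both PA+NTP libraries (1.29 and 1.08 FPKM) lay above both PA libraries (0.83 and 1.00 FPKM), and both LA+NTP libraries (0 and 0.06 FPKM) lay below both LA libraries (0.31 and 0.08 FPKM). Under PA the fitted log2 fold change was 0.27, smaller than its SE of 0.51. Under LA the order of the second libraries rests on 4 counts with LA+NTP and 2 with LA. No LA or LA+NTP library reached the cutoff of the filter on low counts. The difference between the fitted log2 fold changes was 2.57, which depends on the prior count since LA+NTP had 4 counts and 1 of its libraries had 0. The direct test of this difference, edgeR's interaction contrast, did not call the gene.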

How the results depend on the processing

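For the 10 chemokine genes and the genes named by the rule for the other lists, no called value changed direction under any of the 18 alternatives. Other genes were not part of that check. Jund, a called AP-1 regulator outside it, changed direction after removal of the GC trend. It went from -0.60 to 0.11 for PA against Vehicle, and from 0.73 to -0.24 for LA+NTP against LA. Over all tested genes, the counts called were 2103 (PA against Vehicle), 1500 (LA against Vehicle), 455 (PA against LA), 1953 (PA+NTP against PA), 2718 (LA+NTP against LA) and 402 (PA+NTP against Vehicle). In limma on log2(FPKM + 1), which shrinks changes of low genes, they were 1238, 880, 252, 1192, 1675 and 226. After removal of the GC trend, the counts of PA, LA, PA+NTP against PA and LA+NTP against LA were 1186, 456, 866 and 809, and the cause of the loss was not tested. The share of higher calls with LA was 33.2%, against 21.1% in limma on log2(FPKM + 1) and 23.1% with library-size scaling, and that with PA+NTP against PA was 63.1%, against 75.2% and 74.2% in the same fits and 74.6% in limma on log2(FPKM + 0.1). The difference between NTP effects gave 0 genes (1029 at an unadjusted p under 0.05), 41 without a filter, 5 with DESeq2, 5 and 3 in limma and 1 with a replicate block.

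Of the 10 chemokine genes, 1 was called with LA, against 2 with library-size scaling and 0 in DESeq2 and limma on log2(FPKM + 1). With only the groups compared it was also 0, but there Ccl4 did not pass the filter and was not tested. For PA+NTP against PA the 0 became 1 without a filter, 1 with only the groups compared, 1 with a replicate block and 3 after GC removal, and for LA+NTP against LA the 2 became 1 in DESeq2 and in limma on log2(FPKM + 1). The other ligands called went from 2 to 1 (LA, limma on log2(FPKM + 1)), from 1 to 3, 0 and 2 (PA against LA, without a filter, in DESeq2 and with a replicate block) and from 3 to 1 (PA+NTP against Vehicle, DESeq2). The receptors went from 1 to 2 (PA, GC removal), from 2 to 4 and 1 (LA, without a filter and limma on log2(FPKM + 1)) and from 3 to 1 (LA+NTP, limma on log2(FPKM + 1)). The regulators went from 3 to 5 (LA, library-size scaling and both limma fits), and from 9 to 5 under PA+NTP and from 9 to 5 under LA+NTP after GC removal.

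With single libraries left out, the spread of a group with 1 library was taken from the other groups. The counts over all genes ranged from 1856 to 2153, 1303 to 1529, 241 to 510, 1789 to 2072, 2447 to 2762, 219 to 484, and 0 to 5 for the difference between NTP effects. The count of PA against LA was 241 without the second PA library and 274 without the first LA library, that of PA+NTP against Vehicle was 219 and 250 without the first and second Vehicle library, and the difference between NTP effects gave 5 and 2 without the second PA and the second PA+NTP library. In the same order, the chemokine genes ranged from 7 to 9, 0 to 1, 6 to 8, 0 to 2, 0 to 2, 6 to 7 and 0 to 0, the other ligands from 3 to 4, 1 to 3, 0 to 1, 3 to 4, 1 to 4, 1 to 3 and 0 to 0, the receptors from 1 to 2, 1 to 3, 0 to 0, 1 to 3, 3 to 4, 0 to 0 and 0 to 0, and the regulators from 10 to 12, 3 to 6, 3 to 5, 9 to 10, 9 to 12, 2 to 7 and 0 to 0. Same-numbered libraries of different groups correlated between -0.069 and 0.127 in their deviations. Without a reference value for paired libraries, these correlations cannot settle whether the numbers pair them. The numbers are those of the sample titles, and the deposited tables are numbered differently in all 5 groups, so the block and the order of libraries hold only for the titles. In the block fit Cxcl5 was -0.88 with PA+NTP against PA and called. Ccl4 had 1 to 37 counts per library, so its counting error is large, and Ccl5 varied between libraries of a group.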

Other observations

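Cxcr5, the receptor of Cxcl13, which was named after its values were seen, was higher with LA+NTP than with LA (0.28 and 0.28 FPKM against 0.04 and 0.02, from 71 and 4 counts per group). It passed the filter only through PA+NTP and LA+NTP, the groups where it was high, so no test is given. With PA+NTP its libraries were apart, at 0.43 and 0.15 FPKM, against 0.11 and 0.15 with PA. Cxcl16, a ligand gene with 50.3 and 52.1 FPKM in Vehicle, also named after its values were seen, was at 71.3 and 77.3 with PA and 78.6 and 79.8 with PA+NTP. Its log2 fold change over Vehicle was 0.57 with PA, under the fold threshold, and 0.60 with PA+NTP (SE 0.06, edgeR adjusted p = 3.89e-05), where it was called. The LA libraries had 50.8 and 52.9 FPKM of Cxcl16 and the LA+NTP libraries 46.7 and 47.4.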
